A study of Homo sapiens with 14 samples.

Results

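Chromatin accessibility was examined at 10 genes of the response to low oxygen and of blood vessel growth in MM.1S and RPMI8226, established human multiple myeloma (MM) cell lines: VEGFA, VEGFB, VEGFC, ANGPT1, HGF, FGF2, MET, HIF1A, EPAS1 and CA9. For each gene, the reference peaks of both lines were taken that overlapped the gene body of GENCODE or the 100 kb on either side of it. A reference peak is an accessible region that was called in at least 3 libraries of its line. The windows of the 10 genes, of 20033 protein-coding genes, held 132 of the 72802 reference peaks of MM.1S and 144 of the 79969 of RPMI8226, which is 276 of 152771 peaks over both lists. All positions below are on hg38.

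Accessibility was measured by Omni-ATAC, a transposase-based assay of accessible DNA, in 14 libraries. Cells of each line were cultured as a monoculture (MONO), in the upper transwell over cells of the bone marrow stromal line HS5 (TSW), or in the lower chamber in contact with HS5 cells (CO). MM.1S had 3 MONO, 3 TSW and 3 CO libraries, and RPMI8226 had 1 MONO, 2 TSW and 2 CO libraries. The labels give no genetic change and no drug for any group, and each line was derived from a single patient. Cells for the libraries were sorted as CD90-CD38+, and the study noted that some HS5 cells remained among the cells of the lower chamber. The deposited lists pool the conditions of a line and hold no read counts, so no replicate test was possible, and MONO, TSW and CO could not be compared. They give no depth per library. The study lists read totals in its supplement, which were not used as data here, and by these a MONO library of MM.1S was much shallower than the other MM.1S libraries. Its part in supports just below the maximum was not tested. The only value of a peak is its support, read as the number of libraries in which it was called, which ran from 3 to 9 in MM.1S and from 3 to 5 in RPMI8226. Because 6 MM.1S libraries were cocultures, a support of 7 or more includes at least 1 MONO library and a support of 9 includes all 3, while in RPMI8226 only a support of 5 has to include the MONO library. In bulk libraries, fewer cells with an accessible region and less accessibility in each cell cannot be told apart, and an accessible promoter is no measure of expression.

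As background, hypoxia-inducible factors are dimers of an oxygen-regulated alpha subunit (HIF1A or EPAS1) with ARNT. Prolyl hydroxylases mark the alpha subunits for VHL and degradation while oxygen is present, and the stabilised dimers bind the hypoxia response element (HRE), whose core is ACGTG or GCGTG. Among their best known targets are CA9, a membrane carbonic anhydrase that regulates pH, and VEGFA, the main growth factor of blood vessel endothelium. VEGFA, HGF, FGF2 and the angiopoietins are secreted by myeloma and stromal cells of the bone marrow, where they act on vessels and, for HGF through its receptor MET, on the myeloma cells themselves. AP-1, a dimer of JUN and FOS family proteins that binds TGACTCA or its reverse complement, was searched because the study followed it.

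The distal peaks called in every library of both lines are shown first, since these regions away from promoters were called in every culture condition. Such a call does not show that accessibility was the same in each condition. The paper gives a site downstream of VEGFA with the motif of JUNB, an AP-1 protein, as an example of increased accessibility in TSW. Whether it is the VEGFA peak printed here was not tested. There were 20 pairs that overlapped 1 to 1, and 5 held AP-1 and 6 the HRE core in the interval both lists shared. The MM.1S peaks at -76.3 kb of HGF and -41.2 kb of MET were also of every library, but each overlapped 2 RPMI8226 peaks of every library and is not among the 20. Each stretch below is 200 bases of the plus strand of hg38 centred on a match, so that an end can lie outside the peak, with AP-1 (TGACTCA or TGAGTCA) and the HRE core (ACGTG or GCGTG, read CACGT or CACGC on the other strand) in capitals. CACGTG is an HRE core on both strands and counts as 2 matches, and it is also the E-box of other helix-loop-helix factors. Distances are from the canonical start to the middle of the MM.1S peak and are negative upstream in the direction of transcription.
VEGFA 28.8 kb, chr6:43798923-43799122: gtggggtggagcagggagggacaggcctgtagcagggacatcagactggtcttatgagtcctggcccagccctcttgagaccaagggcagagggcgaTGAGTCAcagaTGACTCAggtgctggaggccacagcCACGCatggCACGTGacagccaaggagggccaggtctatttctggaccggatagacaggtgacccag
HIF1A -32.8 kb, chr14:61662577-61662776: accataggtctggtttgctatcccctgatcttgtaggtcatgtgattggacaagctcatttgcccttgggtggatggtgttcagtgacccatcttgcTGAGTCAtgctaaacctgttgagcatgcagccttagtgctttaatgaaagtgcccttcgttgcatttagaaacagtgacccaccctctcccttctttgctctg
EPAS1 164 kb, chr2:46462009-46462208: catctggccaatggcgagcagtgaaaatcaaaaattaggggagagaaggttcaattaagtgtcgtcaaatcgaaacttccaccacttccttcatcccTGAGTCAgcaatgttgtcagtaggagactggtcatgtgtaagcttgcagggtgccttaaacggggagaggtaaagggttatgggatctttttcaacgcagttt
HGF 93.2 kb, chr7:81676941-81677140: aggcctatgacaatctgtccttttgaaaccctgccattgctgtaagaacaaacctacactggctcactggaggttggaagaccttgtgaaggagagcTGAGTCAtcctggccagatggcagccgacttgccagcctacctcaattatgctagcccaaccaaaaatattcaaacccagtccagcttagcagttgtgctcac
MET 131 kb, chr7:116802974-116803173: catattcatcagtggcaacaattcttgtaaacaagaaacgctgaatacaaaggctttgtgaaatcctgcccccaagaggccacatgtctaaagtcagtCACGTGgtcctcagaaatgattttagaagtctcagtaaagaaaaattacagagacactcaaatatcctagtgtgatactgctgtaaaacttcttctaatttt
The VEGFA stretch held 2 AP-1 matches and 3 HRE core matches. The MET stretch held CACGTG and no AP-1. Among all 1-to-1 distal pairs called in every library of both lines, 21.5% of 11640 held AP-1 and 43.0% held the HRE core, against 5 and 6 of 20 here.

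Peaks in the 10 windows were mostly shared between the lines. In MM.1S 96 of 132 peaks (72.7%, 95% Wilson interval 64.6 to 79.6) overlapped a RPMI8226 peak, against 64.6% of the whole list. For RPMI8226 the count was 104 of 144 (72.2%, 64.4 to 78.9), against 62.0%. The share was highest at promoters of neighbouring genes, with 38 of 45 peaks in MM.1S and 43 of 49 in RPMI8226. At the promoters of the 10 genes themselves it was 9 of 13 (69.2%) and 9 of 15 (60.0%). Over all promoter peaks of the lists it was 71.8% in MM.1S and 76.6% in RPMI8226. Distal peaks were shared in 49 of 74 cases in MM.1S (66.2%, against 60.0% of all distal peaks) and in 52 of 80 in RPMI8226 (65.0%, against 53.7%). These intervals cover counting error only, and peaks of a window are not independent of each other.

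A peak counted as promoter when it reached within 2500 bp of any annotated transcript start. By this rule 58 MM.1S peaks (43.9%, 35.8 to 52.5) and 64 RPMI8226 peaks (44.4%, 36.6 to 52.6) lay at a promoter, against 39.2% and 36.0% of the lists. The windows of VEGFB and CA9 held 18 and 12 coding genes, and without these genes the promoter shares were 28.4% and 29.3%. The median window held 12.5 MM.1S and 13.5 RPMI8226 peaks, while that of all coding genes held 11.0 in both lines. VEGFB, VEGFA and MET had the most MM.1S peaks (24, 23 and 22), while VEGFB, EPAS1 and VEGFA led in RPMI8226 (31, 24 and 22).

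**Figure D1:**
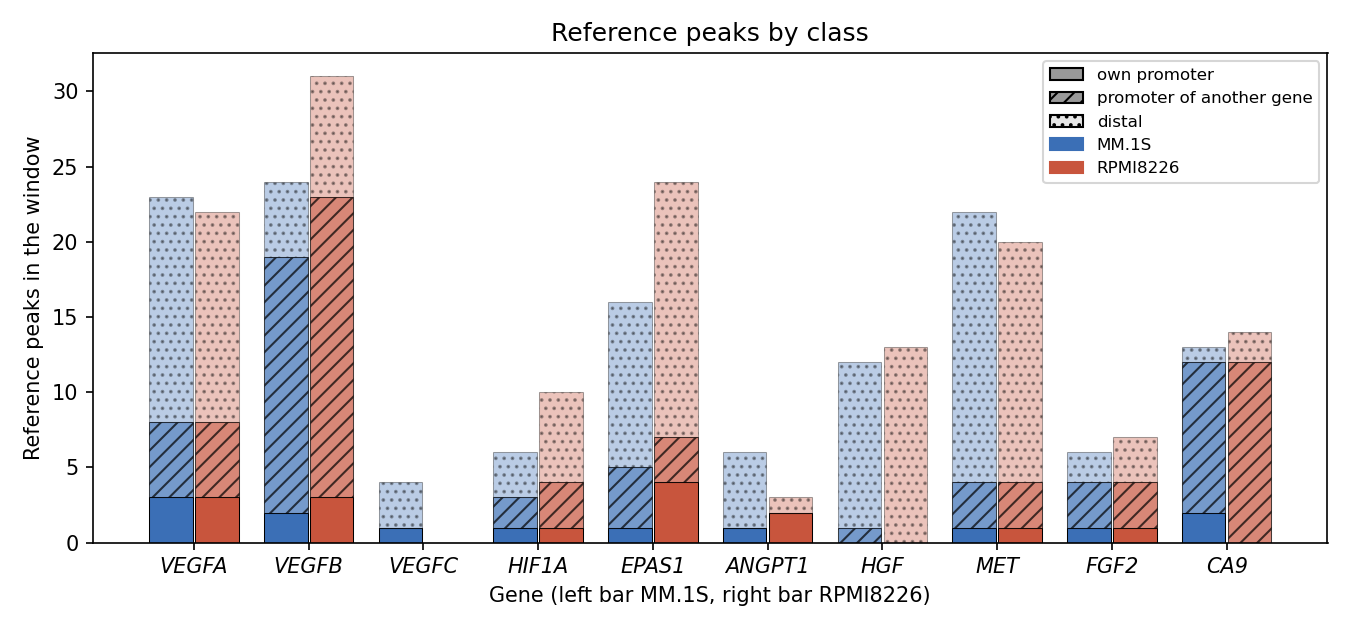
Number of reference peaks in the window of each gene, in MM.1S (left bars, blue) and RPMI8226 (right bars, red), stacked by class: own promoter, promoter of another gene and distal. VEGFC has 4 peaks in MM.1S and 0 in RPMI8226, EPAS1 has 16 and 24, and no bar of HGF has an own promoter part.

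**Figure D2:**
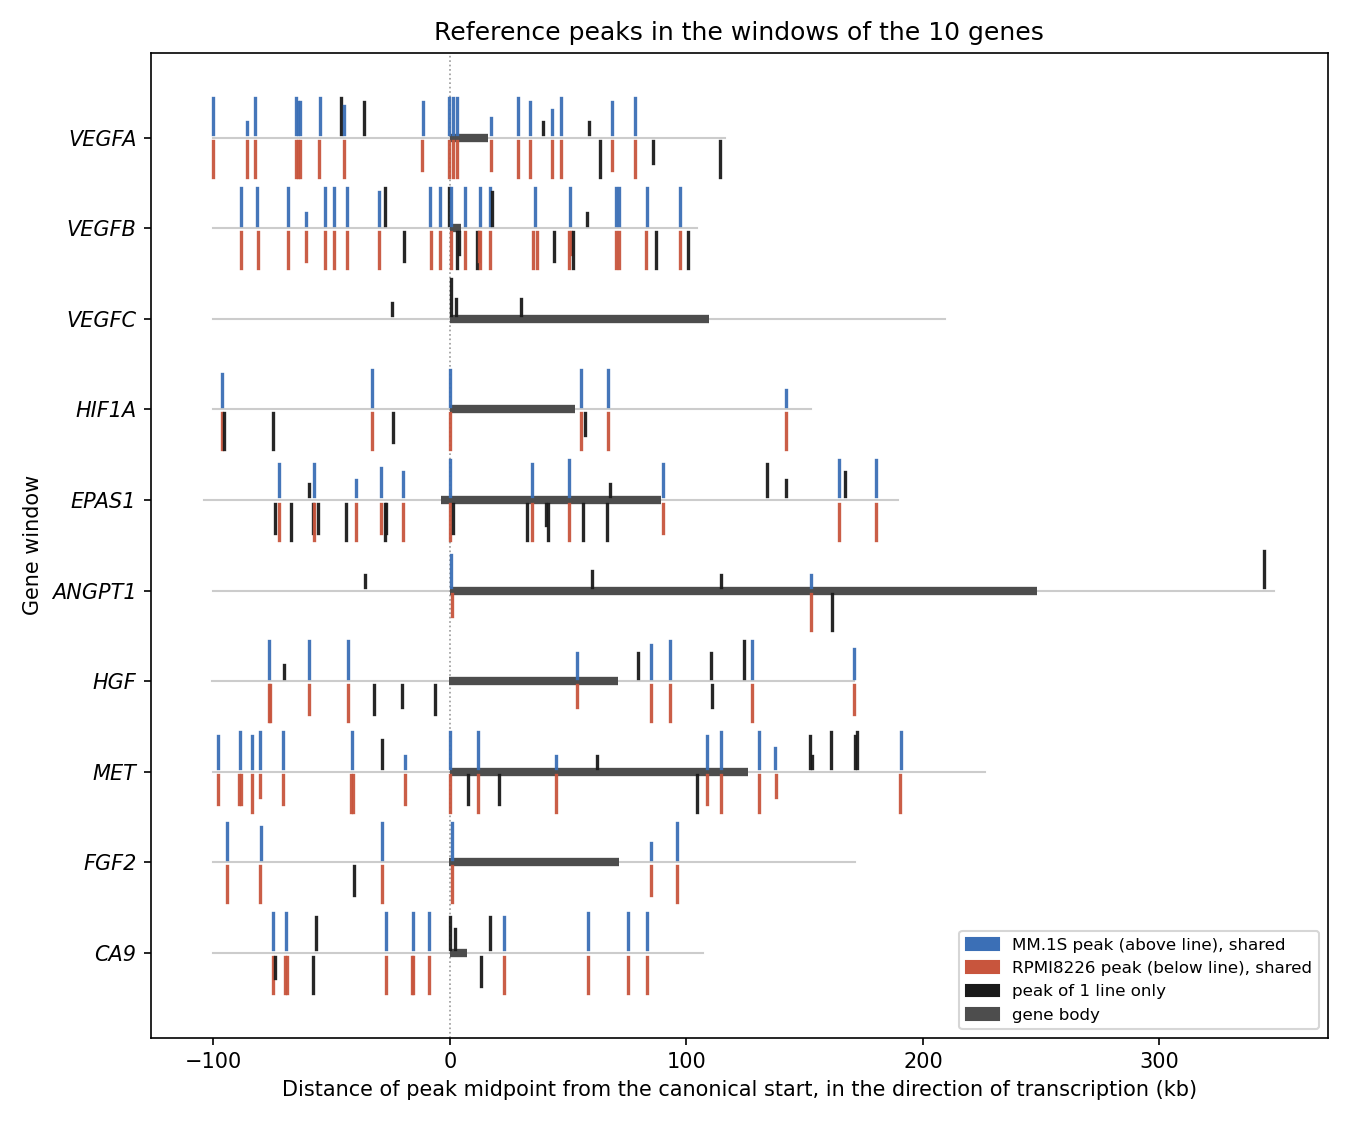
Position of each reference peak against the canonical start of its gene in kb, with MM.1S peaks above and RPMI8226 peaks below the line and bar height proportional to the share of libraries with the peak. Black bars are peaks without overlap in the other line: all 4 of VEGFC, 13 RPMI8226 peaks of EPAS1 and a row of 5 MM.1S peaks beyond the 3' end of MET.

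In MM.1S 70 of 132 peaks (53.0%, 44.6 to 61.3) were called in all 9 libraries, against 52.0% of the list, and 26 had a support of 8 (19.7%, against 13.2%). In RPMI8226 102 of 144 (70.8%, 62.9 to 77.6) were called in all 5 libraries, against 64.1%. The minimum support of 3 was found for 16 MM.1S peaks (12.1%, against 8.64% of the list) and for 12 RPMI8226 peaks (8.33%, against 15.3%). Other low supports of MM.1S did not all lie above the list, with 1.52% against 6.17% at a support of 5. Peaks whose support was low enough that the MONO libraries could all lack them numbered 32 in MM.1S (24.2%, against 27.7%) and 42 in RPMI8226 (29.2%, against 35.9%). Support followed peak class, since 39 of 58 promoter peaks and 31 of 74 distal peaks of MM.1S reached 9.

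**Figure D3:**
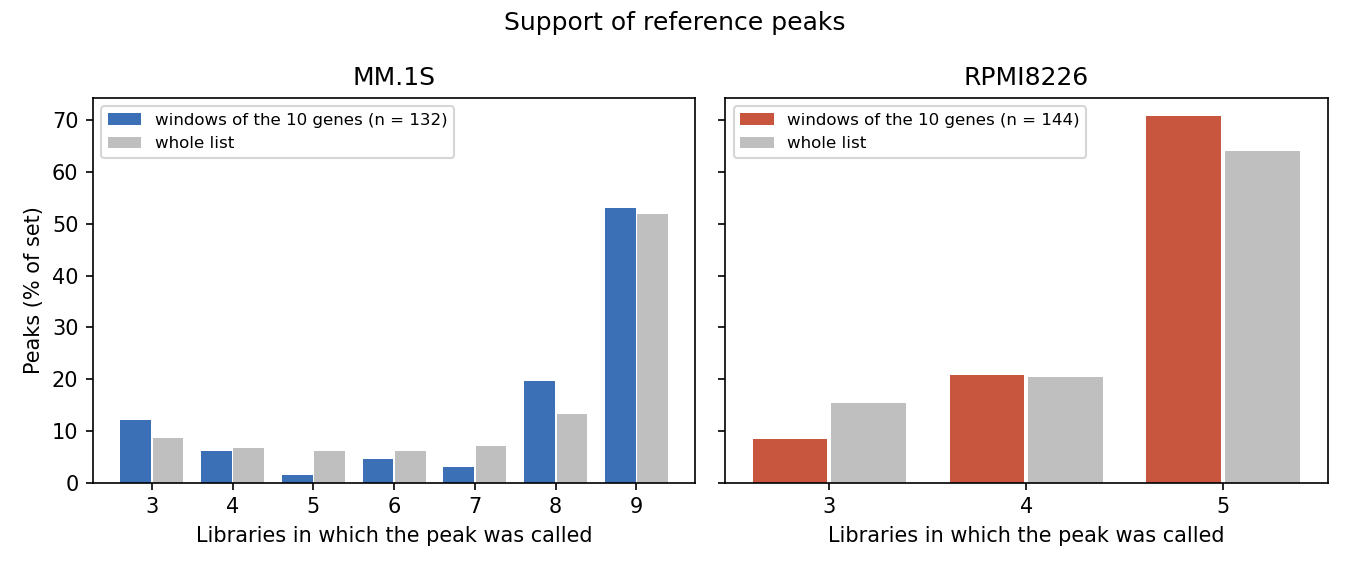
Percent of peaks by the number of libraries in which they were called, for the windows of the 10 genes (coloured) and the whole list (grey), in MM.1S with 9 libraries and RPMI8226 with 5. The tallest bars are the peaks of every library, 53.0% against 52.0% in MM.1S and 70.8% against 64.1% in RPMI8226.

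Of the 10 genes, 9 had a peak at a promoter of their own in MM.1S, against 76.8% of coding genes, and 7 did in RPMI8226, against 71.8%. VEGFA, VEGFB, ANGPT1, FGF2, MET, HIF1A and EPAS1 had such a peak in both lines, as had 13740 coding genes (68.6%). VEGFC and CA9 had it in MM.1S alone, as had 1640 coding genes (8.19%), and HGF had it in neither line, as had 4010 (20.0%). No member had it in RPMI8226 alone, where 643 coding genes (3.21%) did. When only peaks of every library were kept, ANGPT1 and CA9 dropped out in MM.1S and 7 genes had an own promoter peak in each line. The sets differed, with VEGFC in that of MM.1S only and ANGPT1 in that of RPMI8226 only. ANGPT1 stayed in RPMI8226 by a peak at an internal start, as the peak at its main promoter had a support of 3.

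VEGFA (chr6:43770184-43786487, plus strand) held 23 peaks in MM.1S and 22 in RPMI8226, 19 of them shared in each line. Only 3 coding genes lie in its window, and its MM.1S and RPMI8226 counts were at percentiles 93.4 and 90.2 of all coding genes. Its promoter region carried 3 separate peaks in each line, centred -338, 1228 and 3194 bp from the start in MM.1S. All 3 were called in all 9 MM.1S and all 5 RPMI8226 libraries. They were 787, 1602 and 374 bp wide in MM.1S and 647, 1388 and 465 bp in RPMI8226. The peaks therefore included every MONO library of both lines. VEGFA had 15 distal peaks in MM.1S and 14 in RPMI8226, with 11 of them shared in each line. The widest lay between VEGFA and the upstream genes at -55.1 kb (chr6:43714532-43715707, 1176 bp, support 9), and the RPMI8226 list had it at 1107 bp with support 5. Nearest to the start among distal peaks of every library was the one at 28.8 kb, 691 bp wide in MM.1S and 499 bp in RPMI8226, which holds the pair of AP-1 matches printed above. Without overlap in the other line were 4 MM.1S and 3 RPMI8226 peaks. Those of every library were at -46.2 kb in MM.1S (510 bp, support 9), and at 63.4 kb (1033 bp, support 5) and 114 kb (478 bp, support 5) in RPMI8226.

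VEGFB (chr11:64234584-64239264, plus strand), a relative of VEGFA that binds FLT1, lies in a gene-dense region where 17 of 24 MM.1S peaks and 20 of 31 RPMI8226 peaks were promoters of other genes. A peak just inside the gene was nearly the same in both lines, 528 bp in MM.1S with support 9 and 529 bp in RPMI8226 with support 5. Only MM.1S had a second one upstream of the start (chr11:64234151-64234559, 409 bp, support 9). Only RPMI8226 had peaks further into the gene, at 3070 bp (438 bp, support 5) and 3749 bp (173 bp, support 3). All 5 distal MM.1S peaks were shared. The widest was at -81.3 kb in an intron of MACROD1, with 799 bp in MM.1S and 473 bp in RPMI8226.

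VEGFC (chr4:176683538-176792922, minus strand), the growth factor of lymphatic vessels, was the only member without a RPMI8226 peak. Its 309 kb window held 4 MM.1S peaks and none of RPMI8226. In MM.1S the promoter peak (chr4:176791729-176793162) was 1434 bp wide and was called in all 9 libraries, the 3 MONO libraries included. The other 3 peaks, at -24.6, 2.80 and 29.9 kb, had supports of 3, 4 and 4 and were 304, 189 and 336 bp wide, and none of them had to include a MONO library. A window without any RPMI8226 peak was found for 391 coding genes, and 26 of the 20033 had 4 or more MM.1S peaks and no RPMI8226 peak. The list does not show how many RPMI8226 reads came from this region.

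ANGPT1 (chr8:107249482-107498055, minus strand), the ligand that activates the receptor TEK, had few peaks for its 449 kb window, 6 in MM.1S and 3 in RPMI8226, at percentiles 23.3 and 9.11 of coding genes. The peak at its main promoter was 533 bp wide with support 8 in MM.1S, so that at least 2 MONO libraries had it, and 181 bp wide with support 3 in RPMI8226, where it could lack the MONO library. RPMI8226 had a second peak of 237 bp and support 5 at an internal start, 161 kb into the gene. Both lines shared a distal peak at 153 kb in an intron, 167 bp with support 3 in MM.1S and 183 bp with support 5 in RPMI8226. The only distal MM.1S peak with support 9 was 998 bp wide, 344 kb from the start and beyond the 3' end of the gene. The other 3 MM.1S peaks were not shared and had supports of 3 or 4.

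HGF (chr7:81699010-81770438, minus strand), the ligand of MET, had no peak at any of its 8 annotated starts in either line, although its window held 12 MM.1S and 13 RPMI8226 peaks, near the median of coding genes (percentiles 57.5 and 58.8). The nearest peak to the canonical start was a RPMI8226 peak at -6.19 kb (chr7:81776032-81776439, 408 bp, support 4). It was the first of 3 RPMI8226 peaks in a row without MM.1S overlap, up to -31.9 kb, with supports of 4, 3 and 4. Further upstream both lines shared peaks, and the one at -43.1 kb was of every library in both, 468 bp in MM.1S and 493 bp in RPMI8226. The widest distal peak of MM.1S lay at -76.3 kb (1179 bp, support 9), where RPMI8226 had a pair of peaks of 422 and 389 bp, both with support 5. The widest distal peak of RPMI8226 was the last of its 3 in a row, at -31.9 kb (535 bp, support 4). In the gene body the sole peak of each line was a shared one at 53.8 kb with support 6 in MM.1S and 3 in RPMI8226.

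FGF2 (chr4:122826682-122898236, plus strand), the basic fibroblast growth factor, had the widest own promoter peak of the members in MM.1S, 1876 bp with support 9. In RPMI8226 it was 1169 bp with support 5 and began downstream of the canonical start. All 6 MM.1S peaks were shared, and RPMI8226 had 1 further peak, at -40.3 kb (239 bp, support 4). The nearest distal peak, at -28.7 kb, was of every library in both lines and 627 bp wide in MM.1S and 247 bp in RPMI8226. A wider one of 1093 bp and support 8 lay at -80.0 kb in MM.1S, with 465 bp and support 5 in RPMI8226. No distal peak lay in the gene body or downstream of it in either line.

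MET (chr7:116672196-116798377, plus strand), the receptor tyrosine kinase for HGF, had a promoter peak of every library in both lines, 857 bp in MM.1S and 685 bp in RPMI8226, centred -60 and -45 bp from the start. Its window held 22 and 20 peaks, at percentiles 91.7 and 85.5, of which 18 and 16 were distal, the most distal peaks of any member in MM.1S. Shared peaks numbered 15 in MM.1S and 17 in RPMI8226. Within the gene body, 5 distal MM.1S peaks and 7 of RPMI8226 were listed, all intronic, and the nearest of every library was at 11.8 kb (568 and 279 bp). Downstream of the gene the lines shared peaks at 131 and 138 kb and then parted. MM.1S had 5 peaks in a row without RPMI8226 overlap in introns of CAPZA2, which encodes a subunit of the actin capping protein, between 152 and 172 kb (chr7:116824154-116844593). Their supports were 8, 3, 9, 8 and 9, and the widest, 1256 bp at 161 kb, was the widest distal peak of the window. The widest distal peak of RPMI8226 was at 115 kb (643 bp, support 5), where MM.1S had 657 bp with support 9. The lines shared the peak at the CAPZA2 promoter at 191 kb, 1069 bp with support 9 in MM.1S and 860 bp with support 5 in RPMI8226. Upstream, distal MM.1S peaks in the non-coding gene COMETT were shared in 6 of 7 cases, and at -88.7 kb a 1143 bp peak of MM.1S covered RPMI8226 peaks of 386 and 191 bp.

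HIF1A (chr14:61695513-61748259, plus strand), the alpha subunit present in most cells, had a promoter peak of every library in both lines, 959 bp in MM.1S and 879 bp in RPMI8226, centred -48 and -39 bp from the start. All 6 MM.1S peaks of the window were shared, and RPMI8226 had 4 more. The gene body held no peak in either line beyond the promoter peak at its start. The nearest distal peak of every library lay at -32.8 kb (chr14:61662435-61662926), 492 bp with support 9 in MM.1S and 517 bp with support 5 in RPMI8226, and is printed above for its AP-1 match. RPMI8226 alone had a 612 bp peak at -74.9 kb with support 5, which was its widest distal peak there and also held AP-1 in its central 200 bp.

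EPAS1 (chr2:46293667-46386697, plus strand) encodes HIF-2 alpha, the subunit best known from endothelium and kidney. It had 8 more peaks in RPMI8226 than in MM.1S, 24 against 16, a difference at percentile 95.8 of all coding genes. The main promoter peak was alike, 1419 bp with support 9 in MM.1S and 1230 bp with support 5 in RPMI8226. Of the 24 RPMI8226 peaks, 8 had a support below 5. No overlap with MM.1S was found for 13, and 3 of these counted as own promoter peaks of EPAS1. The one at 1284 bp (441 bp, support 4) lay within 2500 bp of the canonical start. Those at 40.4 kb (242 bp, support 3) and 56.1 kb (853 bp, support 5) from the canonical start lay at further starts of EPAS1. Inside the gene RPMI8226 had 9 peaks and MM.1S 4. The nearest distal peak of every library was at 50.5 kb in MM.1S (769 bp), shared with RPMI8226 at 680 bp and support 5. In RPMI8226 it was at -19.8 kb (822 bp), which was also its widest distal peak and had a support of 6 and 752 bp in MM.1S. The widest distal peak of MM.1S, 999 bp with support 9, lay at 164 kb in introns of annotated non-coding genes and was 777 bp wide with support 5 in RPMI8226.

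CA9 (chr9:35673928-35681159, plus strand) had its promoter peak in MM.1S alone (chr9:35673484-35674185, 702 bp), with support 8, so that at least 2 MONO libraries had it. A second MM.1S peak at 1983 bp (548 bp) had support 5 and need not include a MONO library. Both lie within the reach of starts of ARHGEF39, a neighbouring gene of the other strand, and could be counted for either gene. Together with a peak at 16.9 kb at the TPM2 promoter (695 bp, support 8) they formed 3 MM.1S peaks in a row without RPMI8226 overlap. In RPMI8226 the nearest peaks to the CA9 start were the ARHGEF39 promoter peak at -8.86 kb (support 5) and a TPM2 peak at 13.1 kb (support 4). The CA9 window held 13 peaks in MM.1S and 14 in RPMI8226, and only 1 and 2 of them were distal. The shared distal one at -74.9 kb was of every library in both lines, 493 bp in MM.1S and 374 bp in RPMI8226, and RPMI8226 alone had another next to it (395 bp, support 3).

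Promoter sequences were matched by symbol to the RefSeq table (GRCh38.p14) for 8 of the 10 genes, all but VEGFA and ANGPT1. Each of the 8 held 1 HRE core within the 250 bases before its start, while 50.7% of 15345 coding promoters held 1 or more, and CA9 alone held AP-1, as did 3.17%. The GC content of the 8 stretches ran from 50.0% in HGF to 82.8% in VEGFB. The matches of MET and CA9 lay closest to the start, with 9 and 13 bases between the HRE core and the start. Printed in the direction of transcription and with matches in capitals are 4 genes. MET had a promoter peak listed in both lines, VEGFC and CA9 in MM.1S only, and HGF in neither. CA9 is given as 30 bases around each match, MET as the 145 bases before its start and HGF as 154 bases.
MET, chr7:116672051-116672195: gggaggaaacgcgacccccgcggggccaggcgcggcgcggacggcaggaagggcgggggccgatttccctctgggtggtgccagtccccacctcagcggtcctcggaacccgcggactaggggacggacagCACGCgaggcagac
VEGFC, chr4:176792923-176793172, minus strand: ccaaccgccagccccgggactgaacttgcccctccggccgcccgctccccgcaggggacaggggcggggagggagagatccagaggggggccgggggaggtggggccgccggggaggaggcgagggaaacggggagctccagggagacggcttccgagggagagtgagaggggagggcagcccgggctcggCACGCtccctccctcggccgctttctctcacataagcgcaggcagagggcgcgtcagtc
CA9 AP-1, chr9:35673839-35673868: aagggcgctctgTGAGTCAgcctgctcccc
CA9 HRE core, chr9:35673897-35673926: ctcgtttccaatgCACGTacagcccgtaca
HGF, chr7:81770137-81770290, minus strand: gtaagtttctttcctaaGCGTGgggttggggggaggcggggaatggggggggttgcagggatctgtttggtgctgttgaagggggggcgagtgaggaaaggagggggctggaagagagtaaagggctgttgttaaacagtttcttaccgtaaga
These stretches show that an HRE core stood before the start of genes whose promoter peak was in both lines, in MM.1S only or missing. The CA9 matches lie in the MM.1S promoter peak of support 8, and no RPMI8226 peak covers them. For VEGFB and FGF2, too, the 250 bases before the start overlapped an MM.1S peak of support 9 and no RPMI8226 peak, since the RPMI8226 peaks of both genes began downstream of it. A match is a description of letters and not a bound site.

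Motif matches in distal peaks of the windows, sought on both strands in the central 200 bp, were close to the lists. AP-1 was in 7 of 74 MM.1S peaks (9.46%, 4.66 to 18.3), against 9.17% of all distal peaks, and in 15 of 80 RPMI8226 peaks (18.8%, 11.7 to 28.7), against 17.0%. In this central window the higher AP-1 share of RPMI8226 was thus a feature of its whole list. Distal peaks of the windows were wider in MM.1S, at a median of 448 bp against 348 bp. Searched over their whole width, 24.3% of them held AP-1 in MM.1S and 27.5% in RPMI8226. The HRE core was in 14 MM.1S peaks (18.9%, against 21.9%) and 12 RPMI8226 peaks (15.0%, against 19.9%). The other motifs were rarer. ATF::CEBP (TGATGNAA) was in 3 and 2 peaks, against 3.78% and 4.02% of the lists, and all 5 lay in the VEGFA and MET windows. STAT3 (TTCCNGGAA) was in 1 peak of each line, against 0.610% and 0.645%, and both were the same VEGFA peak at 78.4 kb with supports 9 and 5. The interferon-stimulated response element was in 5 and 7 peaks, against 8.64% and 7.47%, with 4 of the 5 MM.1S peaks at ANGPT1. The CTCF consensus was in 1 peak of each line, against 4.34% and 3.39%. By gene, AP-1 in RPMI8226 was found in 3 distal peaks each of EPAS1 and MET, in 2 each of VEGFB, HIF1A, HGF and FGF2 and in 1 of VEGFA.

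Where a peak of one line overlapped exactly 1 peak of the other, widths could be compared pair by pair. Of 88 such pairs in the windows, MM.1S had the wider peak in 65 (73.9%, 63.8 to 81.9), against 81.6% of 44631 pairs over the lists, and the median widths were 632 bp in MM.1S and 476 bp in RPMI8226. It was the wider in 7 of 9 own promoter pairs, 26 of 33 pairs at promoters of other genes and 32 of 46 distal pairs. The exceptions at own promoters were the third VEGFA peak (374 against 465 bp) and the VEGFB peak (528 against 529 bp). In 51 pairs (58.0%, against 56.3%) both peaks were called in every library. As the lists differ in width throughout, at a median of 536 and 362 bp, the wider MM.1S peaks are not particular to these genes.

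**Figure D4:**
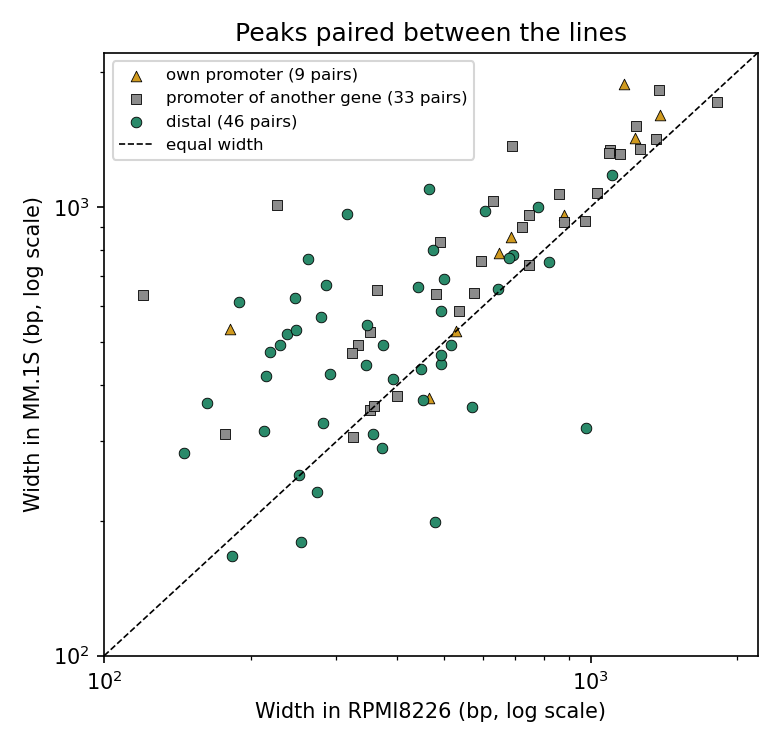
Width of the MM.1S peak against that of the RPMI8226 peak, both in bp on log scales, for 88 pairs that overlap 1 to 1, with triangles for own promoters, squares for promoters of other genes and circles for distal peaks. Points above the dashed line of equal width are wider in MM.1S, which holds for 65 pairs.

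Other genes of these pathways were read the same way, for 58 genes grouped by role. An own promoter peak was listed for 48 in MM.1S (82.8%, against 76.8% of coding genes) and for 47 in RPMI8226 (81.0%, against 71.8%), and for 43 in both. The oxygen-sensing genes were nearly complete. All 10 HIF partners and regulators had one in RPMI8226, among them the partner ARNT, the hydroxylases EGLN1, EGLN2 and EGLN3, the inhibitor HIF1AN and VHL. In MM.1S 9 of 10 did, and the exception was HIF3A, which encodes a further alpha subunit. Of 20 hypoxia target genes, 18 had a promoter peak in both lines, such as the glucose transporter SLC2A1, the lactate dehydrogenase LDHA and the vasodilator ADM, each with support 9 and 5. The remaining target genes, the mitophagy receptor BNIP3 and CA12, another carbonic anhydrase, had it in RPMI8226 alone with support 4, so CA9 and CA12 were listed in opposite lines. The CA12 peak did not overlap the 250 bases before its RefSeq start, whereas the MM.1S peak of CA9 did. The peaks of HIF3A and PDK1 and the RPMI8226 peak of VLDLR did not overlap these bases of their genes either.

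A promoter peak was listed for 9 of 12 receptors in MM.1S and for 6 in RPMI8226. The VEGF receptors KDR and FLT4 had one in MM.1S alone, with a support of 5 that need not include a MONO library, and the FGF receptor FGFR3 had one with support 9. No own promoter peak was listed in either line for FLT1, the receptor of VEGFA and VEGFB, or for TEK and TIE1, the angiopoietin receptor and its partner. The VEGF co-receptors NRP1 and NRP2 had promoter peaks of every library in both lines. Of 7 further ligands, 4 had a promoter peak in both lines (PGF, VEGFD, FGF1 and PDGFB), PDGFA in RPMI8226 alone, and ANGPT2 and ANGPT4 in neither. All 5 genes of HGF activation and inhibition had one in MM.1S and 4 did in RPMI8226, where the protease HPN lacked it. The proteases HGFAC and ST14 and the inhibitors SPINT1 and SPINT2 had one in both lines. Among angiogenesis inhibitors, THBS1 and COL18A1 had one in both lines, THBS2 in MM.1S alone (support 8) and TIMP3 in neither. These calls count any annotated start of a gene. No peak of either line overlapped the 250 bases before the RefSeq start of HGFAC, HPN, KDR, THBS2, COL18A1, PGF, VEGFD, FGF1 or PDGFA. For SPINT1, THBS1 and the receptor PDGFRB, only an MM.1S peak did.

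**Figure D5:**
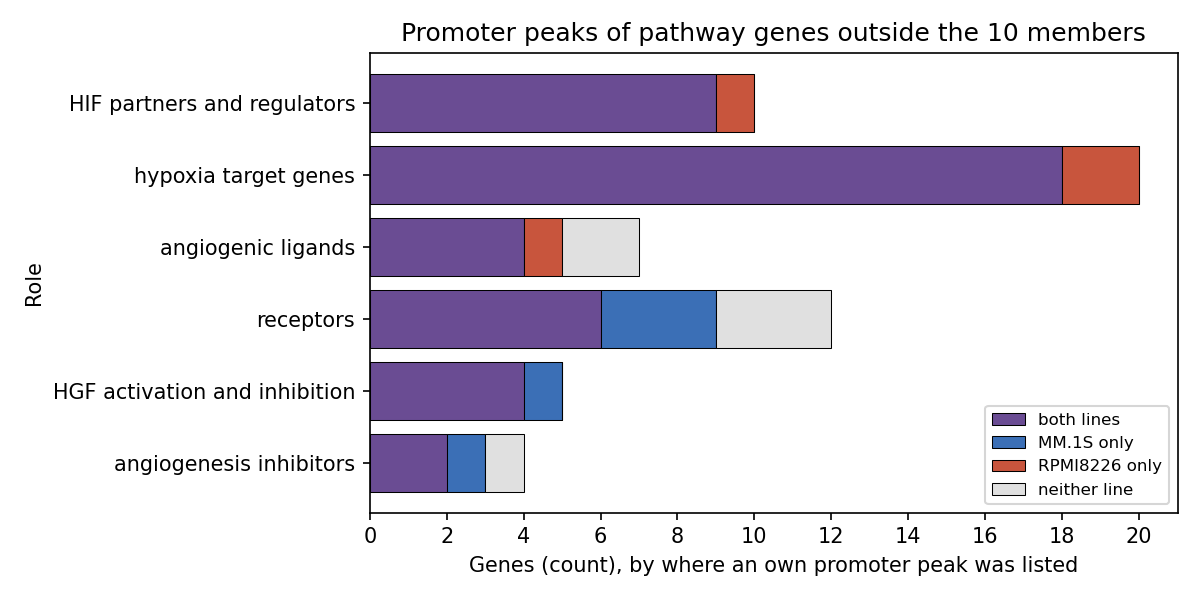
Number of pathway genes outside the 10 members by role, split into those with an own promoter peak in both lines, in MM.1S only, in RPMI8226 only and in neither. The 3 receptors with a peak in a single line had it in MM.1S, and the 2 target genes with a peak in a single line had it in RPMI8226.

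Promoter peaks were also read at marker genes of plasma cells and of stromal cells. An own promoter peak was listed for 76.8% of coding genes in MM.1S and 71.8% in RPMI8226, so it is a weak check of the labelled cell type. All 7 plasma cell markers (SDC1, CD38, TNFRSF17, SLAMF7, IRF4, PRDM1 and XBP1) had a promoter peak in both lines, in every library of MM.1S and, for 6 of them, in every library of RPMI8226. Of 9 stromal markers, 5 had a promoter peak in each line, and THY1, COL3A1, LUM and POSTN had none in either. The best supports of those with a peak were 9 for COL1A1, PDGFRB and PDGFRA, 8 for DCN and 6 for COL1A2 in MM.1S, and 5, 5, 4, 4 and 3 in RPMI8226 for the same genes in that order. HS5 cells shared the chamber with MM cells in CO cultures only, of which MM.1S had 3 libraries and RPMI8226 had 2. Every RPMI8226 peak, and every MM.1S peak with a support of 4 or more, was therefore called in at least 1 library without HS5 cells in the chamber. This holds for all own promoter peaks named above. The 16 MM.1S peaks with support 3, among them the VEGFC peak at -24.6 kb, could come from CO libraries alone, and the part of stromal cells in them was not tested.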

How the data were processed

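The authors aligned paired-end Omni-ATAC reads to hg38 with Bowtie2, left out multi-mapped reads, kept 1 read per position, called peaks in each library with MACS3 and kept as reference peaks those present in at least 3 libraries of a line. Tool versions, the peak threshold, the joining of boundaries and any transposase shift are not given in the sources used here. In the deposited lists, the only value of a peak is a whole number without a header, in a unit other than reads. It was taken as support, the number of libraries with the peak, from its range and the authors' minimum. Starts were taken as counted from 0, so that printed positions could be off by 1 base. No peak passed a chromosome end or was listed more than once.

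Samples were grouped by the line and culture condition in their titles. Windows, promoters (2500 bp) and introns were those of GENCODE release 44, and the study took RefSeq starts. Overlap of at least 1 bp counted as shared. Motifs were exact matches. Python 3.11.15, pandas 2.3.3 and pysam 0.24.0 were used, and the code was tested on simulated data. No differential test was run, because the lists hold no value for a library. Intervals are 95% Wilson intervals. The members, the pathway and marker lists and the peaks named (own promoter peaks, and per line the widest distal peak and the nearest distal peak of every library, and rows of 3 or more peaks of a single line) were chosen with earlier results of these data known. Further peaks were named after their values were seen. Of the 8 distal stretches the sequence rule gave, 5 are printed and the others are not reported here, and the peaks nearest to the starts of CA9 and HGF are left out because the bases printed for them would hold no match. Alternatives changed the flank, the overlap, the promoter window, the starts used, the minimum support, the width, the motif window and the genes included.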

Additional observations from a re-analysis of the deposited data

How the results depend on the processing

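Of 98 alternatives over 16 results, 66 stayed close to the reported value and 32 moved. Of the 10 genes, those with an own promoter peak stayed at 9 in MM.1S and 7 in RPMI8226 except that peaks of every library left 7 in MM.1S. Of the 58 pathway genes, 43 to 50 had one in MM.1S, lowest with peaks of every library, and 40 to 50 in RPMI8226, lowest with the canonical start only. Member peaks in MM.1S and RPMI8226 numbered 83 and 88 with a flank of 50 kb, 27 and 29 in the gene body with its promoter window, 209 and 233 with 200 kb, 71 and 78 when peaks narrower than the median were left out, and 70 in MM.1S when every library was required. The shared share was 63.0% and 58.6% in the gene body, 88.6% and 81.4% for peaks of every library, 81.7% and 80.8% for the wider peaks, and 55.3% and 50.7% when the overlap had to cover 50% of both peaks. The promoter share was 55.7% for MM.1S peaks of every library, 60.6% and 53.8% for the wider peaks, and 34.1% and 34.0% with starts of protein-coding transcripts only. In RPMI8226 it was 36.3% without VEGFB, 36.1% with 1000 bp and 54.9% with 5000 bp. The share called in every library was 74.6% and 88.5% for the wider peaks. AP-1 was in 24.3% of whole distal MM.1S peaks and 27.5% of those of RPMI8226, and in 6.76% and 8.75% of central 100 bp stretches. It was in 15.9% and 25.6% of distal peaks with a flank of 50 kb, and in 9.68% and 25.5% of those of every library. Both of these settings counted as close because the intervals are wide. The HRE core was in 39.2% of whole MM.1S peaks, and in 8.11% and 8.75% of central 100 bp stretches. The share called in every library was not recomputed on peaks of every library, where it is complete by construction. No paired analysis was possible because the lists hold no value for a single library, and for the same reason no library could be left out. Depth, which the lists do not give, limits what can be said of peaks absent from a list.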
